A study of Mus musculus with 8 samples.

Results

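The count table of the RNA-Seq libraries holds 44396 loci assembled from the reads, and 3550 of them carry no gene name in any entry. The loci described here are the 2330 unnamed loci with at least 10 counts in each of the 4 RNA libraries, so the counts themselves chose them. They are compared with the 16414 named loci that pass the same minimum, and the fit of the RNA data covered 20350 loci, all 2330 members among them. Mouse embryonic stem cells (mESCs) that express GFP from the Oct4 promoter were grown without feeder cells, and for 24 h their medium received 0.9% NaCl in the control and 10 µM morphine in the treated condition. RNA-Seq of poly(A) RNA and ChIP-Seq of H3K27me3, the histone mark laid down by Polycomb Repressive Complex 2 (PRC2), were each carried out in 2 control and 2 morphine libraries. All libraries come from a single cell line, and although the study's methods call the H3K27me3 replicates biological, no source used here says whether the RNA replicates were separate cultures, so p-values measure the spread between these samples only. In bulk RNA, a change in the share of cells that make a transcript and a change in the RNA per cell cannot be told apart.

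An assembler joins aligned reads into transcripts and then gives each assembled locus the name of an annotated gene where one overlaps. What stays unnamed depends on the annotation it was given. Common kinds are processed pseudogenes, which are spliced mRNA copies reinserted into the genome by retrotransposition, unspliced fragments around known genes, unannotated noncoding RNAs, and members of young gene families such as the KRAB zinc finger genes, whose proteins bind DNA and recruit silencing factors to retroelements. Pseudogenes and recent duplicates share long stretches with other loci. The sources used here do not state how reads that align to several places were counted, nor whether strand was used in counting, so values of near-identical or overlapping loci are uncertain.

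The first sequences show what a processed copy looks like, because all members that rose after morphine were of this kind. Each stretch is from GRCm38, 5′ to 3′, on the plus strand, and for Atad3a and Chmp2a the matching coding stretch of the parent transcript in the GENCODE vM21 annotation stands below it. Capitals mark the bases that differ between copy and parent.
Atad3a copy, chr15:38990812-38990991: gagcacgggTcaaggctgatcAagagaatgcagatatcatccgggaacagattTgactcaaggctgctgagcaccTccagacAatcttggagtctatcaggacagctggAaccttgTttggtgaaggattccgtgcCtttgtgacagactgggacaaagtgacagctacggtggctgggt
Atad3a transcript, bases 668 to 847: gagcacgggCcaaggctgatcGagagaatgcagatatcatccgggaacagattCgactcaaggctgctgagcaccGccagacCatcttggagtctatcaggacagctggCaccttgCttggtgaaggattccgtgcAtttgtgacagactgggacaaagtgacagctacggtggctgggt
Chmp2a copy, chr13:76935472-76935651: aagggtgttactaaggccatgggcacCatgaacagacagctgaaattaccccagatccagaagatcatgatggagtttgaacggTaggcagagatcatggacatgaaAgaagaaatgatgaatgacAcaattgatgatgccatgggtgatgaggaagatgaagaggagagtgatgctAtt
Chmp2a transcript, bases 529 to 708: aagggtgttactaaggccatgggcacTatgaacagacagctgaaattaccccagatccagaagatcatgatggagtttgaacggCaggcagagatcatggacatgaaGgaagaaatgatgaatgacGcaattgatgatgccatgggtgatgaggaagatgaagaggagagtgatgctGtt
Rps20 copy, chr3:119709515-119709694: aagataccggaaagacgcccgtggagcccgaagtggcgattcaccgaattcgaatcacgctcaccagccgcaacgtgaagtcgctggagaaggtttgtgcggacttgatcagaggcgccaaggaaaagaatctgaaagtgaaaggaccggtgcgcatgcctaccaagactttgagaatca
Over these 180 bases the Atad3a copy differed from its parent at 8 positions and the Chmp2a copy at 5 (T27C, C85T, G108A, G127A and G178A, transcript base first, counted from 1 at the start of the stretch). The Rps20 copy differed at 0 positions here and held the same bases as positions 190 to 369 of an Rps20 transcript. Each of these stretches runs without a break over 2 places where the parent mRNA is joined from separate exons, after bases 100 and 170 in Atad3a, 39 and 170 in Chmp2a, and 93 and 167 in Rps20.

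The next set shows short, abundant members that are copies of each other, since several of the deepest falls were among them. They were not matched to large-subunit ribosomal RNA, for which no reference sequence was used here, so what their counts and peaks measure is uncertain. The 150 bases from the intron of Jarid2, a stretch that aligned best without gaps, are the reference of the comparison, and a capital in the other marks the base that differs from it.
Jarid2 intron, chr13:44869823-44869972, plus strand: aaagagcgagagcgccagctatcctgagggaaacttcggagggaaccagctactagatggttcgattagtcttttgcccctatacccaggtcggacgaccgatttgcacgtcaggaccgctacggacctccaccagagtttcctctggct
chr8:15519783-15519932, minus strand: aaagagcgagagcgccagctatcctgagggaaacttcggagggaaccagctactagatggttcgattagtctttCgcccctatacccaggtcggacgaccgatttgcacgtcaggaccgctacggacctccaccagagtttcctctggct
The stretch on chromosome 8 differed from the reference at 1 base, and a member on chromosome 16 (chr16:57391300-57391449, plus strand) held the same 150 bases as the one on chromosome 8.

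The third set shows the repeated unit that most of the other falling members share. It is a run of 3 zinc fingers of the C2H2 class read on the minus strand from the member chr11:121942257-121944255, which the assembler placed on the plus strand, and capitals mark the codons of the paired cysteines and histidines that hold the zinc ion.
chr11:121943284-121943514, minus strand: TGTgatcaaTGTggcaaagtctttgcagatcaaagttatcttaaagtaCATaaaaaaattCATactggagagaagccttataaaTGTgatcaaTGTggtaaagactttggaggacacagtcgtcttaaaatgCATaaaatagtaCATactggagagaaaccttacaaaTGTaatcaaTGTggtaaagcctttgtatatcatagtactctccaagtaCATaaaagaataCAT
The unit repeats every 84 bases.

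A total of 25081266 to 29531096 counts per library fell on loci, and the 2330 members took 2.36% of them in control replicate 1, 1.90% in control replicate 2, 1.90% in morphine replicate 1 and 1.85% in morphine replicate 2. The excess in control replicate 1 lay in few loci. Without a ribosomal RNA locus on chromosome 17 and 19 abundant short members the shares were 1.61%, 1.54%, 1.55% and 1.57%. All 10 mESC markers (Pou5f1, Nanog and others) were measured, and their summed level was 5405 to 5599 CPM (counts scaled to library size), against at most 137 CPM for the neural, 24.0 for the primitive endoderm, 16.3 for the fibroblast, 5.42 for the mesoderm and 0.639 for the trophoblast markers. At the lower edge of the rule, the 78 members whose lowest count was 10 had a median level of 0.525 CPM and a median length of 331 bp, and the 83 unnamed loci whose lowest count was 9 had 0.485 CPM and 311 bp.

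Most members were short and unspliced. Of the 2330, 1992 had 1 exon, and for 1780 of these the table gave no strand. A further 198 had 2 exons and 140 had 3 or more, so that 14.5% had more than 1 exon, against 94.96% of the named loci. Of 624 introns in members, 549 (88.0%) began with GT and ended with AG, the letters of the common splice sites, against 90.3% in named loci. The median exonic length was 727.5 bp (quartiles 426 and 1333 bp), against 3328 bp for named loci, and the median level per length was 2.51 CPM per kb against 4.81 CPM per kb. Members held 46.1% GC and 12.5% repeat-masked bases in the median, and named loci 50.2% and 8.73%.

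By position, most members lay within named loci or near them. A total of 1098 (47.1%) were more than 5 kb from any named locus, with a median distance of 31928 bp (quartiles 13057 and 84972 bp). Another 463 lay in an intron on the other or an unknown strand, 48 in an intron on the same strand, and 599 within 5 kb of a named locus in other arrangements. Only 52 lay in the 5 kb past the 3′ end of a named locus on its own strand, 58 shared exon bases with one on the other or an unknown strand, 9 pointed away from a start within 1 kb, and 3 shared exon bases on the same strand. With 10 kb as the limit, 902 members remained intergenic. They were found on all chromosomes, with 165 on chromosome 2, 115 on X and 2 on Y, and 4 lay outside the assembled chromosomes.

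The larger GENCODE vM21 annotation covered most of these loci. Exons of pseudogenes, and none of protein-coding genes, overlapped 995 members. Over all members, 922 overlapped an exon of a processed pseudogene. Exons of protein-coding genes overlapped 406 and exons of other noncoding genes 140, and 789 (33.9%) overlapped no annotated exon at all. Against GENCODE in place of the named loci, 245 members were intergenic. The members with no annotated exon were the shortest group in the median (642 bp) and the least abundant per length (1.95 CPM per kb), and those with a pseudogene exon the most abundant (3.71 CPM per kb).

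**Figure D1:**
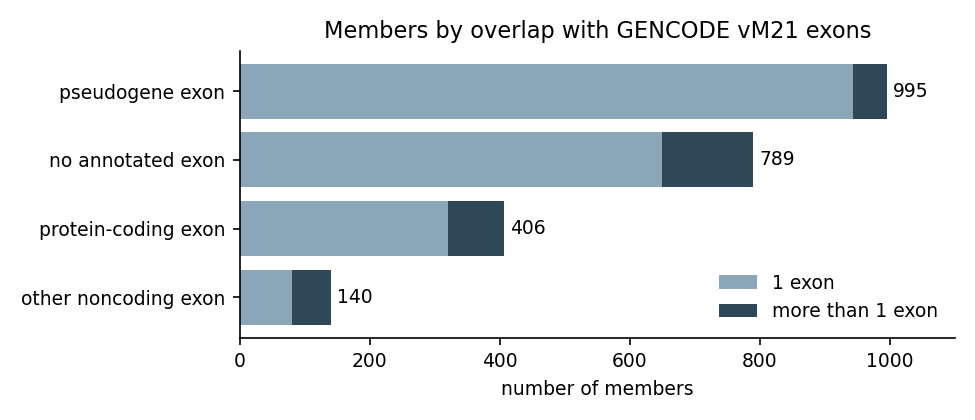
Number of members (horizontal axis) that overlap exons of pseudogenes, no annotated exon, exons of protein-coding genes or exons of other noncoding genes in GENCODE vM21, split by whether the member had 1 exon or more. The bars stand at 995, 789, 406 and 140 members, and single-exon loci make up most of each group.

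A search of the members against protein-coding transcripts found a parent for many. Alignments of at least 95% identity over at least 80% of the locus to a transcript of another gene were found for 923 members (39.6%), with 718 different parents and a median identity of 98.1%. In 814 of the matches the copy ran across at least 1 splice junction of the parent mRNA (median 4), and 797 of those members had 1 exon, which is the structure of a processed copy. Of the 923 matched members, 778 overlapped an annotated pseudogene exon, and 94 overlapped no annotated exon. The parent with most copies was Rps2, a small ribosomal subunit protein, with 11 members. Gapdh, a glycolytic enzyme, had 8, D10Wsu102e 6, and Rplp0, Rpl7a (both large ribosomal subunit proteins) and Odc1 (ornithine decarboxylase, of polyamine synthesis) 5 each. The longest member was such a copy. The locus chr12:10152144-10160213 (8070 bp, 1 exon) matched Acaca, the acetyl-CoA carboxylase of fatty acid synthesis, at 99.1% identity across 46 of its junctions.

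Copies were mostly present at lower levels than their parents. Over the 859 pairs in which both loci were tested, the level per kb of the copy was 14.0% of that of the parent in the median. In 62 pairs the copy was above the parent per kb. Here the length is that of all exons of the assembled locus. A parent locus can hold more exonic bases than the matched mRNA, which lowers its level per kb. Identity was 99% or more for 266 members and 100% for 34, so for these the split of reads between copy and parent rests on few bases or none. Outside the parent genes, 581 members had another copy in the genome at 95% identity over 80% of their length, 38 of them 10 or more, and 635 members fell into 169 families of mutually similar members. Another 76 members had too few unmasked bases for the genome search.

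After morphine treatment, few members changed. By edgeR's quasi-likelihood test with Benjamini-Hochberg adjustment over all 20350 loci (FDR 0.05), 6 members rose and 26 fell. Over all loci tested, 125 rose (0.614%) and 184 fell (0.904%), 1.52% in all, and among named loci 117 rose and 156 fell. Scaled to total counts in place of TMM, 16 members rose and 32 fell (2.53% of all loci tested were then called). The median log2 fold change (log2FC, morphine over control) was −0.05 over members, 0.01 over named loci and 0.00 over all loci tested, and 1291 members (55.4%) lay below 0. Both controls lay above both morphine libraries in CPM for 610 members and below them for 385. The same was seen for 26.8% and 26% of all loci tested.

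The calls rested on the libraries to different degrees. Control replicate 1 was the highest of the 4 libraries in CPM for 22 of the 26 members that fell and for 892 of all 2330 members, against 421 for control replicate 2, 555 for morphine replicate 1 and 462 for morphine replicate 2. Without control replicate 1, 43 members rose and 47 fell, against 1.7% of all loci called in either direction, and the median log2FC was −0.00. Without morphine replicate 1, 0 members were called, and 13 of all 21224 loci then tested (0.0613%), while at an unadjusted p under 0.05 81 members (3.48%) had a log2FC above 0 and 136 (5.84%) below 0, against 4.44% and 5.08% of all loci. Without control replicate 2, 48 rose and 178 fell (7.67% of all loci called), and without morphine replicate 2, 6 rose and 54 fell (2.85% of all loci).

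The kinds of member differed in the direction of their median change. Members on pseudogene exons had a median log2FC of 0.06, with 6 that rose and 5 that fell, and it was 0.0040 without control replicate 2 and 0.023 without morphine replicate 1. The medians were −0.12 for members with no annotated exon (0 rose, 11 fell), −0.18 for those on protein-coding exons (0 rose, 8 fell) and −0.08 for those on other noncoding exons (0 rose, 2 fell). Members with more than 1 exon had a median of −0.15 (0 rose, 15 fell) and those with 1 exon −0.02 (6 rose, 11 fell), which was 0.02 without control replicate 1. Zinc finger members made up 14 of the 15 falls with more than 1 exon, and all 11 falls with no annotated exon were zinc finger (5) or abundant short (6) loci. With length and GC trends removed from each library, the medians were 0.07 on pseudogene exons and −0.05 with no annotated exon. They were −0.09 on protein-coding exons and −0.03 on other noncoding exons. These 4 kinds then held 3, 0, 0 and 1 rises and 0, 5, 1 and 1 falls (0.448% of all loci called). The median was then −0.10 for members with more than 1 exon (0 rose, 0 fell). It was 0.01 for members with 1 exon and −0.01 for all members. These medians describe lists whose members share libraries and were not tested.

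**Figure D2:**
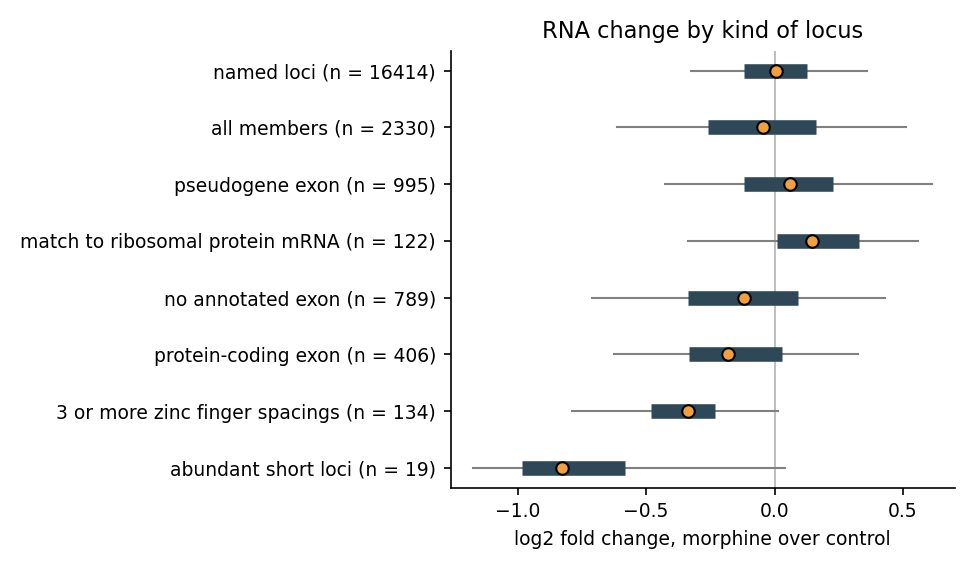
Log2 fold change of RNA, morphine over control, for named loci and for kinds of members (kinds overlap). Points are medians, thick bars run between the quartiles and thin lines between the 5% and 95% quantiles over loci. Named loci centre on 0.01, members matching a ribosomal protein mRNA on 0.15, zinc finger members on −0.34 and abundant short loci on −0.83.

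All 6 members that rose were single-exon copies on annotated processed pseudogenes, and 4 of them matched ribosomal protein mRNAs. The copy of Atad3a, a mitochondrial membrane ATPase, at chr15:38990459-38991194 (Gm4740, 15086 bp from Fzd6) had 22 and 17 counts in the controls and 48 and 64 after morphine. Its log2FC was 1.602 ± 0.27 (SE, edgeR FDR 0.022), whereas Atad3a itself had 3132, 3648, 3304 and 3652 counts (log2FC 0.13, FDR 0.21). The copy of Chmp2a, a subunit of the ESCRT-III membrane scission complex, at chr13:76935466-76935828 (Gm8185, in an intron of Mctp1) had 18 and 21 counts against 43 and 50. Its log2FC was 1.34 ± 0.26 (edgeR FDR 0.038) and that of Chmp2a −0.03 (FDR 0.84). Both copies are at low counts, and they matched their parents at 97.1% and 96.4% identity.

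The ribosomal protein copies that rose were better covered and changed less. The Rps14 copy at chr15:81972342-81972902 (Gm5805, 7638 bp from 1700029P11Rik) had 2184, 2478, 2862 and 2935 counts in control replicates 1 and 2 and morphine replicates 1 and 2, a log2FC of 0.41 ± 0.06 (edgeR FDR 0.012). The Rps20 copy at chr3:119709515-119709881 (Gm4332, 8861 bp from Ptbp2 and 99.7% identical to its parent) had 980, 1101, 1288 and 1251 counts, a log2FC of 0.38 ± 0.07 (edgeR FDR 0.035). The parents Rps14 and Rps20, both of the small subunit, had log2FC values of 0.17 and 0.04 (FDR 0.14 and 0.67). The Rps28 copy at chr3:126447676-126448027 (Gm20568, 7302 bp from Arsj) had 163, 192, 235 and 243 counts (log2FC 0.52, edgeR FDR 0.049), and the Rplp0 copy at chr16:85644268-85644692 (Gm6278, 93559 bp from Cyyr1) had 235, 280, 322 and 341 (log2FC 0.46, edgeR FDR 0.048). Rps28 codes for a small subunit protein and Rplp0 for a protein of the stalk of the large subunit. Their own log2FC values were 0.04 and 0.17 (FDR 0.89 and 0.083). The Rps28 and Rplp0 copies lost the call with length and GC trends removed (edgeR FDR 0.12 and 0.18), as did the Chmp2a copy (0.058), and without control replicate 1 (0.084 and 0.10), whereas the Rps14 and Rps20 copies kept it in both. Per kb of locus length, the Rps20 copy stood at 80.1% of the level of Rps20 and the Rps14 copy at 51.6% of Rps14. The other 4 risen copies stood at 4.29% to 7.78% of their parents. Without scaling to length, the Rps20 copy had a mean of 42.1 CPM against 521 CPM for Rps20. The Rps14 copy had 95.3 CPM against 813 CPM for Rps14.

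Few copies of ribosomal protein mRNAs passed the test. Of the 122 members with a ribosomal protein parent (60 different parents), 4 rose, 0 fell and 29 had a log2FC below 0, and the median was 0.15. At an unadjusted p under 0.05, 24 (19.7%) lay above 0 and 2 (1.64%) below, against 9.70% and 10.8% of all loci tested, and DESeq2 called 5 up and 0 down of the 31 to which it gave an adjusted p. Without control replicate 2 the median was 0.15, and 37 of the 122 had a log2FC below 0. The set as a whole was not tested. In the 121 pairs with both loci tested the medians were 0.14 for the copies and 0.10 for the parents, with 92 copies and 45 of 59 parents above 0. Without morphine replicate 1 the median of the 122 was 0.11, with 0 called and 16 (13.1%, against 4.44% of all loci) above 0 at an unadjusted p under 0.05. Over all 859 pairs of copy and parent, the medians were 0.08 and −0.02, 519 pairs (60.4%) moved with the same sign, and in 0 pairs were both loci called, with 8 copies and 14 parents called singly. Copy and parent can share reads, so agreement of sign within a pair is no independent support for either.

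**Figure D3:**
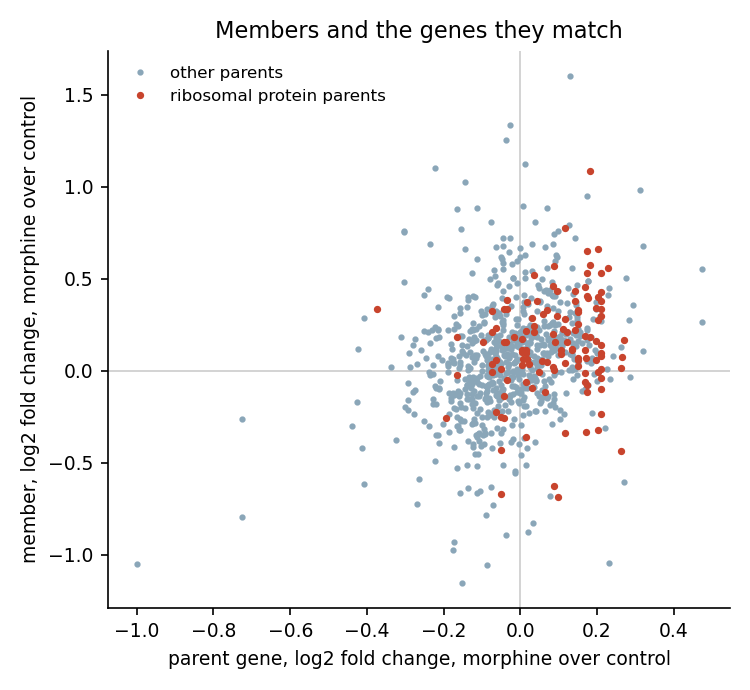
Log2 fold change of 859 members (vertical axis) against that of the protein-coding gene whose transcript each matches (horizontal axis), morphine over control, with the 121 pairs of ribosomal protein parents in red. Most points lie within 0.5 of 0 on both axes, the ribosomal protein pairs sit mainly above and to the right of 0, and the Atad3a copy is the highest point at 1.602.

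Members with zinc finger repeats made up most of the falls. A C2H2 spacing was counted where the joined exons, translated in the 3 frames of either strand (the strand with more was kept), held 2 cysteines parted by 2 residues, then 12 residues, then 2 histidines parted by 3 to 5 residues. At least 3 such spacings were found in 134 members (572 of the 16414 named loci), with a median of 12 and up to 28 per member. This group was formed after the values had been seen, so it is described without a test. Of the 134, 15 fell and 0 rose, against 0.904% and 0.614% of all loci tested. A log2FC below 0 was found for 126 (94.0%), against 49.7% of all loci tested, and the median was −0.34. In 94 both controls lay above both morphine libraries in CPM, as in 26.8% of all loci tested. The 572 named loci with 3 or more spacings had a median of −0.10, with 3 that rose and 18 that fell. The 134 were more often spliced (80 with more than 1 exon), longer (median 2741 bp), lower in GC (38.0%) and richer in repeats (57.6%) than members as a whole. By chromosome, 29 lay on 13, 24 on 12, 16 on 17, 14 on 4 and 13 on 2.

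Among the zinc finger members, the deepest fall was at chr4:146657376-146721687, a spliced locus of 2 exons on exons of Zfp993 with 28 spacings, 110503 bp from 1700095A21Rik. It had 1048 and 731 counts in the controls and 332 and 540 after morphine, a log2FC of −0.95 ± 0.18 (edgeR FDR 0.037), which was −0.62 without control replicate 1. The locus chr3:12857033-12858605 (Gm8935, 611835 bp from AK140446) had 203, 190, 84 and 130 counts, a log2FC of −0.79 ± 0.16 (edgeR FDR 0.042). It matched Zfp987, another zinc finger gene, at 98.2% identity, and Zfp987 itself had 28, 52, 28 and 17 counts. In both loci morphine replicate 1 was the lowest library. Chromosome 4 held 5 of the 15 called zinc finger members and chromosome 11 held 4, all of these within chr11:121905672-121945443 and with no annotated exon.

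Several of these called members overlap each other on opposite strands. Of 56 pairs of members that overlap on opposite strands, 5 had both members called and 3 had 1. On chromosome 11 the loci chr11:121942257-121944255 (plus strand) and chr11:121942894-121945443 (minus strand) had 603, 648, 317 and 456 and 467, 510, 249 and 362 counts. On chromosome 4, chr4:145411952-145454245 (plus) had 2333, 2240, 1260 and 1751 counts, and chr4:145449467-145453800 (minus), on exons of Gm13230 and Platr16, had 2016, 1963, 1100 and 1530. The counts of each pair followed each other through the 4 libraries, and both log2FC values were −0.61 and −0.59 in the first pair and −0.52 and −0.51 in the second. Whether the members of a pair share reads was not tested.

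The number of zinc finger members that fell changed with the processing and with the libraries in the fit. When trends of counts with locus length and GC content were removed from each library, 0 of the 134 were called and their median was −0.16, with 111 still below 0 and 32 (23.9%, against 6.501% of all loci) below 0 at an unadjusted p under 0.05. The same removal left 91 of all loci called (0.448%). Without morphine replicate 1, when 0.0613% of all loci were called, 0 of the 134 were, 40 (29.9%, against 5.08% of all loci) lay below 0 at an unadjusted p under 0.05, and the median was −0.22. The median was −0.47 without morphine replicate 2, −0.37 without control replicate 2 and −0.29 without control replicate 1. DESeq2 gave an adjusted p to 7 of the 134 and called 3 of these down (10.6% of all loci with an adjusted p were called).

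**Figure D4:**
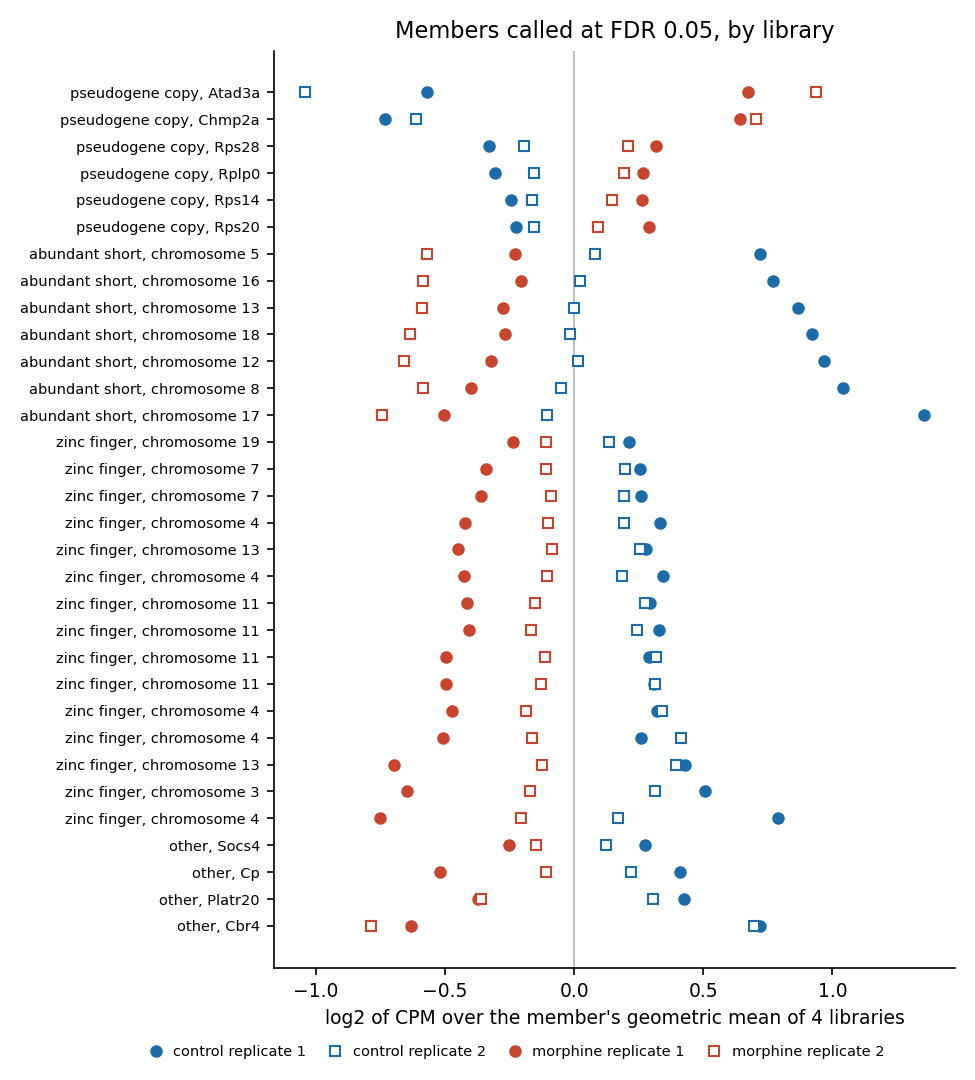
Level of each of the 32 called members in the 4 RNA libraries, as log2 of its CPM over its geometric mean of the libraries (horizontal axis). Blue marks controls and red morphine, filled circles replicate 1 and open squares replicate 2. Control replicate 1 stands apart in the 7 abundant short loci, and morphine replicate 1 is the lowest library in the 15 zinc finger loci.

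A small set of short, abundant loci included 7 of the 26 falls. These 19 members had 1 exon of at most 1 kb, no overlap with a protein-coding or pseudogene exon, and a mean of at least 20 CPM, and they were grouped after the values had been seen. Together they took 0.362% of all counts in control replicate 1, 0.196% in control replicate 2, 0.172% in morphine replicate 1 and 0.137% in morphine replicate 2. Of the 19, 7 fell and 0 rose, against 0.904% and 0.614% of all loci tested. A log2FC below 0 was found for 18, and the median was −0.83. Control replicate 1 was the highest library for 16. Both controls lay above both morphine libraries in CPM for 15, as in 26.8% of all loci tested. Without control replicate 1 the median was −0.35, and without control replicate 2 it was −1.25. Without morphine replicate 1, or without morphine replicate 2, 0 were called, with medians of −1.07 and −0.66 and 16 and 10 of the 19 below 0 at an unadjusted p under 0.05 (5.08% and 11.5% of all loci). DESeq2 called 0 of the 14 to which it gave an adjusted p.

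The locus chr17:70963659-70963896 (238 bp, 3990 bp from AK146694) had 5891 and 2295 counts in the controls and 1495 and 1410 after morphine, so that the controls differed from each other by more than control replicate 2 did from the morphine libraries. Its log2FC was −1.42 ± 0.32 (edgeR FDR 0.0498). In an intron of Cdk8, a kinase of the Mediator complex, chr5:146260991-146261353 had 17206, 11855, 8214 and 7226 counts, the highest level per length of all members at 1109 CPM per kb. Its log2FC was −0.82 ± 0.15 (edgeR FDR 0.034), while Cdk8 had a log2FC of 0.01 (FDR 0.96). The copied locus in the intron of Jarid2 at chr13:44869571-44870024, 1 of a family of 6 similar members and with 5 other copies in the genome, had 5299, 3113, 2214 and 1983 counts. Its log2FC was −0.92 ± 0.20 (edgeR FDR 0.048), and that of Jarid2, which codes for an accessory subunit of PRC2, was −0.13 (FDR 0.12). How its reads were split between the copies is not known. Without control replicate 1 the log2FC values were −0.52, −0.47 and −0.43 for the loci near AK146694 and in the introns of Cdk8 and Jarid2, and for all 7 called short loci they lay between −0.52 and −0.41. The 4 libraries kept one order in these loci, from control replicate 1 down to morphine replicate 2. Of the other called short loci, chr8:15519775-15520125 (372420 bp from Csmd1) had 6828, 3432, 2318 and 2265 counts (log2FC −1.08), chr18:68692011-68692316 (47084 bp from Mir6356) 5585, 3130, 2256 and 1944 (−0.97), and chr16:11143904-11144412, in an intron of Zc3h7a, 3163, 2016, 1480 and 1265 (−0.83).

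The seventh, chr12:78350869-78351173 in an intron of Gphn, matched Lars2, the mitochondrial leucyl-tRNA synthetase, at 97.5% identity over 80% of its length. It had 2336, 1296, 880 and 776 counts, a log2FC of −1.05 ± 0.22 (edgeR FDR 0.046). Lars2 had 12945, 6568, 4711 and 4525 counts and a log2FC of −1.0003 ± 0.23 (edgeR FDR 0.055). The match spanned 0 splice junctions of Lars2, so it does not show a copy of the spliced mRNA. This locus and Lars2 had the same order of libraries.

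An annotated ribosomal RNA locus was the most abundant member and did not pass the test. The member chr17:39842997-39848829 (5833 bp), which overlaps ribosomal RNA entries of GENCODE, had 107985 and 48146 counts in the controls and 44479 and 39698 after morphine. This was 0.388%, 0.163%, 0.177% and 0.142% of all counts. Its log2FC was −0.81 ± 0.27 (edgeR FDR 0.12), with control replicate 1 far above the other libraries, which lay close together. The short member chr6:3200768-3201671 is similar in sequence to it and had 5400, 2311, 2084 and 1814 counts (log2FC −0.91, edgeR FDR 0.11). Without control replicate 1, the log2FC was −0.05 (edgeR FDR 0.81) at the ribosomal RNA locus and −0.10 (edgeR FDR 0.65) at chr6:3200768-3201671, while the median of the 19 short loci was −0.35. The libraries were made from poly(A) RNA, and the part that the level of ribosomal RNA in control replicate 1 has in the fall of the short loci was not tested.

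Outside the zinc finger and abundant short loci, 4 members fell. The locus chr8:61505047-61505846, on exons of Cbr4 (a carbonyl reductase) and 1547 bp from the named Cbr4 locus, had 36 and 38 counts in the controls and 13 and 13 after morphine, a log2FC of −1.41 ± 0.30 (edgeR FDR 0.048). The named Cbr4 locus had a log2FC of −0.16 (FDR 0.29). The locus chr11:51234643-51239202 (4560 bp, on exons of Gm12569) had 341, 337, 181 and 203 counts and the lowest FDR of all members, with a log2FC of −0.73 ± 0.10 (edgeR FDR 0.0099). In both, replicates of a condition lay close together. The locus chr14:47292544-47296092, on exons of Socs4 (a suppressor of cytokine signalling), had 518, 500, 331 and 396 counts (log2FC −0.40, edgeR FDR 0.0497), and chr3:19934004-19935264 (Gm17771, 2 spacings) had 311, 292, 150 and 222 (log2FC −0.61, edgeR FDR 0.049). With length and GC trends removed, chr11:51234643-51239202 kept its call (edgeR FDR 0.019), and the loci on exons of Cbr4, Socs4 and Gm17771 lost it (log2FC −1.27, −0.14 and −0.43, edgeR FDR 0.11, 0.48 and 0.14). Without control replicate 1 the Cbr4 and Socs4 calls were lost too (edgeR FDR 0.063 and 0.12).

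The most abundant members on pseudogenes did not pass the test. The Eef1a1 copy at chr2:40555810-40556530 (Gm13456), whose parent is the factor that brings aminoacyl-tRNA to the ribosome, had 13840, 14727, 12782 and 13702 counts, a log2FC of −0.02 ± 0.04 (edgeR FDR 0.86). The Rps3a1 copy at chr13:108670582-108671453 (Rps3a3, in an intron of Pde4d) had 8245, 9018, 7336 and 8857 counts, a log2FC of −0.00 ± 0.05 (edgeR FDR 0.98), and stood at 136% of its parent per kb. The Rpl23 copy at chr6:66875262-66875750 (Gm9794) had 6806, 6318, 6161 and 6483 counts, a log2FC of 0.04 ± 0.06 (edgeR FDR 0.80), and stood at 119% of Rpl23 per kb. These copies were measured at a depth at which the SE was at most 0.06, and their conditions overlapped. The 136% and 119% are per kb of locus length, so they do not show that a copy had more RNA than its parent. The intergenic short locus chr11:109011645-109012100, 60862 bp from Axin2, had 17716, 9774, 7226 and 6563 counts (log2FC −0.91 ± 0.21, edgeR FDR 0.055).

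The longest members and those with most exons did not pass the test either. The Acaca copy had 743, 695, 751 and 873 counts (log2FC 0.26 ± 0.08, edgeR FDR 0.094). The locus chr12:20806141-20813360 (7220 bp, across 1700030C10Rik) had 941, 902, 651 and 824 counts (log2FC −0.24 ± 0.08, edgeR FDR 0.14). The member with most exons, 19, was chr11:119435909-119462149 on exons of Rnf213 and A930037H05Rik, with 1082, 1098, 869 and 1104 counts (log2FC −0.06 ± 0.07, edgeR FDR 0.71). The members chr15:91231588-91261641 (12 exons, on exons of CN725425) and chr1:37100533-37141387 (11 exons, on exons of Vwa3b) had log2FC values of −0.23 ± 0.09 and 0.17 ± 0.07 (edgeR FDR 0.20 and 0.18).

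Some spliced members lay on no annotated exon. Of these, 104 had all introns with GT and AG ends and fewer than 3 zinc finger spacings, and the most abundant was chr8:15037470-15041125, on the plus strand with 2 exons and 3515 bp, 321 bp from BB014433. The bases around its intron are shown with 40 exon and 20 intron bases and the splice letters in capitals.
Donor, chr8:15039352-15039411: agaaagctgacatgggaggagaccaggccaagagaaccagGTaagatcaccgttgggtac
Acceptor, chr8:15039513-15039572: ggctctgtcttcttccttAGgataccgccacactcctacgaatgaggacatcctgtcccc
It had 559 and 660 counts in the controls and 582 and 643 after morphine, a log2FC of 0.10 ± 0.08 (edgeR FDR 0.50). It was picked by its level after the values had been seen. Of the 104, 0 rose and 0 fell by edgeR at an FDR of 0.05, 10 lay below 0 and 0 above at an unadjusted p under 0.05 (10.8% and 9.70% of all loci), edgeR's exact test called 0 up and 2 down, and the median log2FC was −0.10. DESeq2 gave an adjusted p to 0 of the 104. The 5 falls among all 140 members with no annotated exon and more than 1 exon were zinc finger members.

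Genes of the machinery that removes or silences such RNAs were fixed as lists. Of the nuclear RNA exosome, which degrades unstable nuclear transcripts, and its cofactors, 18 of 19 genes were tested, and 0 rose and 0 fell by edgeR at an FDR of 0.05 (median log2FC −0.03, 3 with an unadjusted p under 0.05, against 20.5% of all loci, and 0 of 17 with an adjusted p called by DESeq2). Of 3′ end processing, Integrator and termination factors, 23 of 24 were tested, 0 rose and 1 fell, the Integrator subunit Ints8 (2211, 2472, 1578 and 1981 counts, log2FC −0.31 ± 0.06, edgeR FDR 0.045), with 6 at an unadjusted p under 0.05 and 2 called by DESeq2. Of retroelement silencing genes, 20 of 21 were tested, 0 rose and 1 fell, Rif1 (13953, 13827, 9389 and 11996 counts, log2FC −0.29 ± 0.06, edgeR FDR 0.047), with 10 at an unadjusted p under 0.05 and 4 called by DESeq2. In both called genes morphine replicate 1 was the lowest library.

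H3K27me3 peaks lay at the starts of a minority of members. The authors called peaks in each library separately, and the lists hold 10305 and 13778 peaks in the controls and 8681 and 12282 after morphine. A peak overlapped the 1 kb on either side of the start (of either end where no strand is given) in 139 members (5.97%) in control replicate 1, 165 (7.08%) in control replicate 2, 146 (6.27%) in morphine replicate 1 and 167 (7.17%) in morphine replicate 2. The share of members was 6.52% ± 0.79 (SD, n = 2) in the control and reached 6.72% ± 0.64 (SD, n = 2) after morphine, so that replicates differed by more than the 0.19 points between conditions (p = 0.667 in an exact two-sided permutation test, which allows no p below 0.33). Among named loci the shares were 18.9% to 20.03%. Over the body of the locus, a peak overlapped 133, 146, 132 and 144 members, and the difference was −0.06 points (p = 0.667 in the same exact test). Coverage of at least 50% of the locus by peaks was seen in 3.95% to 4.59% of members and in 1.77% to 1.97% of the longer named loci.

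Of the members with a peak at the start, 62 had it in libraries of one condition only. A peak was present in any library for 218 members, in all 4 for 100 and in exactly 1 for 51. In 32 it was seen in control libraries alone and in 30 in morphine libraries alone. It was present in both controls and neither morphine library for 2 members, and in both morphine libraries and neither control for 9 (0.0858% and 0.386% of members, against 0.707% and 1.21% of named loci). As shares of the loci with a peak in any library these were 0.917% and 4.13%, against 2.72% and 4.66% of named loci. The 100 members marked in all libraries had a median GC content of 51.7%, against 45.8% for the 2112 with no peak, and 59 of them lay on pseudogene exons. Their median RNA log2FC was −0.00, and that of the 2112 was −0.05. By kind, the share with a peak at the start was 8.24% to 9.85% for members on pseudogene exons, 4.82% to 6.34% for those with no annotated exon, and 3.45% to 3.94% for those on protein-coding exons.

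The abundant short loci stood apart in these data too. A peak at the start was present in all 4 libraries for 15 of the 19 (78.9%), including the 7 that fell. The median score of these peaks (the peak caller's p-value as a negative log10, times 10) was 447 to 474 per library, against 108 to 126 over all members with a peak. The ribosomal RNA locus also had a peak in all 4 libraries. Of the 134 zinc finger members, 3 had a peak at the start in any library, among them chr4:145449467-145453800 in 3 of the 4. Of the 6 members that rose, only the Atad3a copy had one, in control replicate 2 and morphine replicate 1. The sources used here do not state the control library of the peak calls.

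**Figure D5:**
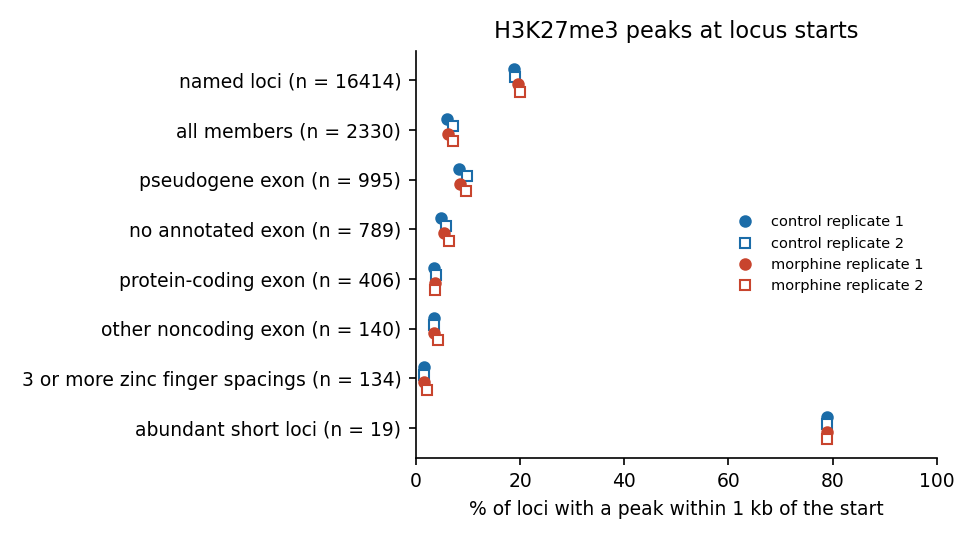
Percent of loci with an H3K27me3 peak within 1 kb of the start, per ChIP-Seq library, for named loci and kinds of members (each n is the number of loci). Blue marks controls and red morphine, filled circles replicate 1 and open squares replicate 2. Libraries of both conditions lie close together in each kind, all members lie between 5.97% and 7.17%, and the abundant short loci stand at 78.9% in all 4 libraries.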

How the data were processed

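H3K27me3 ChIP-Seq and RNA-Seq of control and morphine-treated mESCs were analysed in 8 libraries, grouped by the labels. For RNA, the authors trimmed reads (Trim Galore 0.6.2), aligned them to mm10 (HISAT2 2.1.0), assembled loci (StringTie 1.3.6) and deposited raw counts per locus (featureCounts 1.6.4), 25081266 to 29531096 per library. For ChIP-Seq, the authors aligned reads with Bowtie2 2.3.5.1, called peaks with MACS in each library and deposited positions with a score, the negative log10 of the p-value times 10, never below 50. The number of reads behind each peak list is unknown here.

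Loci past filterByExpr were TMM-scaled, and edgeR 4.0.16 (R 4.3.3) gave the quasi-likelihood test, adjusted by Benjamini-Hochberg and checked on simulated counts. DESeq2 1.42.0 was an alternative. Positions, copies and sequences come from GRCm38 and GENCODE vM21, with matches by BLAST+ 2.17.0+. No locus ended beyond its reference chromosome. Members named are the 10 largest rises and falls at FDR 0.05 without overlap, the 5 most abundant in CPM and per kb, the 3 longest, the 3 with most exons and called members with a peak at the start. Those of the zinc finger, short and remaining called groups, and the unannotated spliced locus, were named after their values were seen. The members, groups and gene lists were chosen with earlier results of these data known.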

Additional observations from a re-analysis of the deposited data

How the results depend on the processing

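The number of members that passed the FDR changed with most choices. Against 32 calls (6 up and 26 down, with 1.52% of all loci called), the edgeR exact test gave 89 (22 and 67, 3.88% of all loci), the likelihood ratio test 98 (26 and 72, 4.13%), no count filter 185 (47 and 138, 5.44%), removal of length and GC trends 11 (4 and 7, 0.448%), DESeq2 11 (6 and 5, among 95 members with an adjusted p, and 10.6% of all loci with one) and an FDR of 0.01 gave 1 (0 and 1, 0.118%). Total count scaling gave 16 rises. Scaling by RLE gave 33 calls, removal of a length trend alone 40, a minimum of 30 counts 29, and members without exon overlap with a named locus 30. Leaving out each library in turn gave 0 to 226 calls (0 to 48 up, 0 to 178 down), and the median log2FC over members, −0.046, ran from −0.084 to −0.0030 and was −0.0056 with length and GC trends removed. Of the 32 called members, 32 kept their call under the exact test, the likelihood ratio test, RLE, total counts, no filter and without control replicate 2, 30 with the length trend removed, 8 with length and GC trends removed, 27 without control replicate 1, 19 without morphine replicate 2 and 0 without morphine replicate 1. Of the 11 to which DESeq2 gave an adjusted p, 4 kept their call and 7 lost it. With fewer samples the fit assumes that a lone library varies like the other condition.

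With the replicate number as a block, 165 members were called (46 up and 119 down, and 5.54% of all loci), the 32 among them. Deviations of same-numbered libraries from their group means correlated at 0.026, so the libraries share only a number.

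Further counts were recomputed under the same choices after the data had been seen. The zinc finger members that fell, 15 by the quasi-likelihood test, numbered 33 and 35 by the exact and likelihood ratio tests and 56 without a filter, and ran from 0 to 54 without each library. Called falls outside the zinc finger, short and ribosomal RNA loci, 4 by that test, ran from 1 with length and GC trends removed to 66 without a filter, and from 0 to 108 without each library.

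The difference in the share of members with a peak at the start, 0.193 points, ran from −0.365 to 0.751 without each library and was −0.043 with 3 kb on either side. Over the locus, −0.064 points became 0.343 with equal numbers of the strongest peaks, 0.064 by peak midpoints and 0.258 for at least 50% of the locus under peaks, and ran from −0.343 to 0.215 without each library. The cause was not tested. Against GENCODE, position classes held 245 intergenic members, 275 near, 218 and 26 in introns (other or unknown, and same strand), 1302 and 239 with exon overlap (likewise), 21 downstream and 4 divergent. With 30 counts as the minimum, 16.8% of members had more than 1 exon.

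Among named members that did not pass the test, log2FC changed sign for chr2:40555810-40556530 (0.0027 with total counts, −0.045 to 0.010 without each library), chr13:108670582-108671453 (0.016 with total counts, 0.035 with length and GC trends removed, −0.064 to 0.053 without each library), chr6:66875262-66875750 (−0.058 to 0.138 without each library), chr11:119435909-119462149 (0.00014 with the length trend removed, −0.157 to 0.033 without each library) and chr11:62515576-62516151 (0.00061 with RLE, 0.019 with total counts, 0.098 with length and GC trends removed, −0.037 to 0.034 without each library).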
